A study of Mus musculus with 12 samples.

Results

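The genes described here are 10 genes that are known to rise in reactive astrocytes, *Lcn2*, *Serpina3n*, *Ptx3*, *Cp*, *Osmr*, *S1pr3*, *Cd44*, *Hspb1*, *Steap4* and *Aspg*. They were taken by name from a table of 18903 genes, and each of the 10 passed the low-count filter that left 17938 genes for testing. These genes, and the gene lists set beside them below, were chosen with earlier results of these data known, so their counts are descriptive. The RNA-seq covered astrocytes cultured from the brains of mice at postnatal day 1, 6 or 8 (P1, P6, P8), with 12 libraries in 6 groups of 2. WT mice were hGFAP-cre::*Rack7*+/+ and *Rack7*-cKO mice were hGFAP-cre::*Rack7* fl/fl, so both genotypes carried the Cre, which is driven by the human GFAP promoter and acts from embryonic neural stem cells that form neurons as well as glia. The floxed gene, *Rack7*, encodes a chromatin reader and is listed under its symbol *Zmynd8*. Brains of both sexes were stripped of meninges, and the cultures were shaken to remove microglia and oligodendrocytes before the remaining cells were grown to confluence. The libraries of a group are labelled as biological replicates, but whether they came from separate animals is not given, so p-values measure the spread between these libraries, which may be technical. The time points were separate cultures with no labelled batch, and time point and culture batch cannot be told apart.

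Reactive astrocytes are astrocytes that change their expression after injury, infection or inflammation. Signals such as interleukin-1, tumour necrosis factor and the interleukin-6 family (oncostatin M, leukemia inhibitory factor) reach the nucleus through NF-kB, STAT3 and C/EBP factors. Some induced genes are shared by many kinds of injury and are called pan-reactive, and others were first described after inflammation (A1-associated) or after ischemia (A2-associated). Most of the genes described here belong to the pan-reactive class. Their products include secreted defence proteins, cell surface receptors, a chaperone and enzymes.

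*Lcn2*, *Osmr*, *Steap4*, *Serpina3n* and *Ptx3* fell and rose together between time points, and *Hspb1* moved the other way. *Lcn2* and *Osmr* had too few upstream bases free of coding-gene exons, so upstream sequence is shown for the other 4. Each is the part of the RefSeq promoter window (GRCm38.p6, 250 bases before to 50 after the annotated start) that lies upstream of coding-gene exons, given 5′ to 3′ on the strand of the gene, with motif matches in capitals. The *Steap4* stretch is chr5:7960222-7960456 on the plus strand, *Serpina3n* chr12:104406458-104406707 on the plus strand, *Ptx3* chr3:66219637-66219886 on the plus strand and *Hspb1* chr5:135887669-135887918 on the plus strand.
Steap4: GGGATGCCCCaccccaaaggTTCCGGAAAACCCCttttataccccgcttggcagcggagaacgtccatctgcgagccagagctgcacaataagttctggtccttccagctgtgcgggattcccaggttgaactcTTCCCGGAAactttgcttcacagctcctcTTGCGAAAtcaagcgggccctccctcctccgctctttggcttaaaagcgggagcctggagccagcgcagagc
Serpina3n: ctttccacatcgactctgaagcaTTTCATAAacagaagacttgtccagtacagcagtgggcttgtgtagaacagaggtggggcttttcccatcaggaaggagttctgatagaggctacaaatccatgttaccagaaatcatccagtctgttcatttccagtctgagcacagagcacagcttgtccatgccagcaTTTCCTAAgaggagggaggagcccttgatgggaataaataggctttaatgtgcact
Ptx3: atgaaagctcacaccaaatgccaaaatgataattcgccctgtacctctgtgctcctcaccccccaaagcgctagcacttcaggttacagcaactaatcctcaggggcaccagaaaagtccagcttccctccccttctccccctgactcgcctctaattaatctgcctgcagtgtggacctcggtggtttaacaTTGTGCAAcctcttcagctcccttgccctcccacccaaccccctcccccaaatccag
Hspb1: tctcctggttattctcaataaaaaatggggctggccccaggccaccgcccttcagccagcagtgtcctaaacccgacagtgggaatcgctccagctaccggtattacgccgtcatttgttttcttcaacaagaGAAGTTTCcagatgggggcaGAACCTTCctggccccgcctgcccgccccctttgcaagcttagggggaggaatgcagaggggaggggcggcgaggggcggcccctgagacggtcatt
On both strands, 5 motifs were searched in 32851 promoter windows and in the 11 windows of the 10 genes (*Cp* has 2). The STAT motif TTCNNNGAA stood in 8.3% of all windows and in that of *Steap4*. The C/EBP motif TTNNGNAA stood in 40.7% of all windows and in 7 of the 11, those of *Aspg*, *Cp*, *Lcn2*, *Ptx3*, *Serpina3n* and *Steap4*. The NF-kB consensus stood in 4.51% of all windows and in those of *Ptx3*, where its matches lie at the start site and run past the stretch shown, and *Steap4*, where 1 match overlaps a C/EBP match. The AP-1 motif TGANTCA stood in 7.81% of all windows and in those of *Cp* and *Osmr*. The heat shock motif GAANNTTC stood in 7.86% of all windows and in that of *Hspb1*, where its 2 matches began 117 and 97 bases before the start. A match describes letters in a window and not a bound site.

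The targeted gene was measured first. In CPM (reads scaled to library size, which was normalized by TMM), the P1 libraries averaged 136 for *Zmynd8* under the label WT and 214 under cKO, the P6 libraries 115 and 236.0, and the P8 libraries 102 and 166. It was thus higher under the label cKO at each time point (log2 fold change 0.65, 1.04 and 0.70, adjusted p = 3.16e-05, 4.97e-07 and 3.78e-06 by the quasi-likelihood test of edgeR, Benjamini-Hochberg). Counts cover the whole gene and take reads from outside the floxed exons, so this level does not check the deletion, and the groups are named below by their labels. The study itself examined RACK7 protein in primary astrocytes of both genotypes by immunoblot. It also reported far fewer RACK7 binding sites on chromatin in cKO than in WT astrocytes.

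Library totals ran from 54413504 to 89183250 counts. Markers of the labelled cell type were present, and none of the 11 astrocyte markers was at 0 in any library. Their summed level was 2388 to 2584 CPM at P1, 1546 to 1884 at P6, 1766 to 2147 in the P8 libraries labelled WT and 775 to 779.8 in those labelled cKO. Markers of other cells were present as well. The 10 microglia and macrophage markers summed to 3216 to 3974 CPM at P1, 3439.8 to 3571 at P6, 4037 to 4118 at P8 WT and 7026 to 7037 at P8 cKO, with none at 0. The 8 meningeal fibroblast markers summed to 407 to 419.6 CPM at P1 WT, 2462 to 2493.5 at P1 cKO, 6569.8 to 6630.2 at P6 WT, 2611 to 2790.7 at P6 cKO, 25588 to 25707.5 at P8 WT and 8090.1 to 8332 at P8 cKO. Of these, *Dpt* was at 0 in all libraries labelled WT and in 1 at P6 cKO, and *Lum* was at 0 in both at P6 cKO. The 5 mural markers measured, of 8 listed, summed to 1726 to 1731 CPM at P1 WT and 2569.9 to 2576 at P1 cKO. They summed to 2202 to 2262 CPM at P6 WT, 2538 to 2897 at P6 cKO, 1814 to 1825 at P8 WT and 2229 to 2244 at P8 cKO. In cultures sequenced in bulk, fewer cells of a type and less RNA per cell cannot be told apart, and the part of these cells in the results was not tested.

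**Figure D1:**
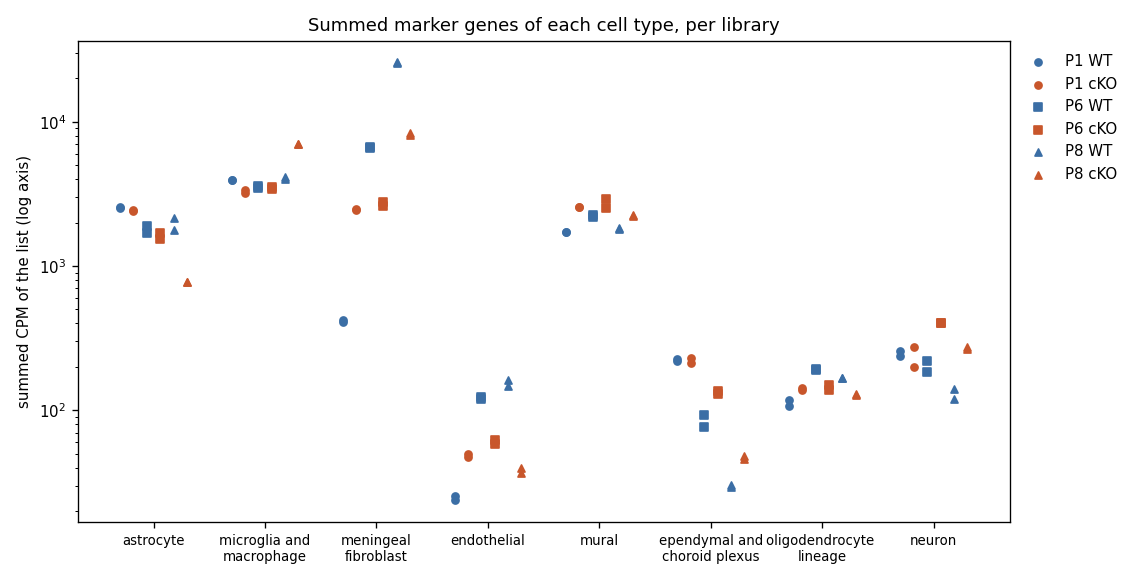
Summed CPM (log axis) of the marker genes of 8 cell types, with 1 point per library, coloured by the label WT or cKO and shaped by time point. The fibroblast sum ran from 407 CPM at P1 WT to 25707.5 at P8 WT, and the microglia and macrophage sum was highest at P8 cKO, at 7026 and 7037.

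Among the secreted proteins, the range of levels was widest for *Lcn2* (ENSMUSG00000026822, chr2:32384633-32388252, minus strand, GRCm38), which encodes lipocalin 2, an iron-siderophore binding protein of innate defence. *Lcn2* stood at 209 and 191 CPM at P1 WT and at 286 and 337 at P1 cKO. At P6 it stood at 1.06 and 0.555 CPM under WT, from 67 and 38 counts, and at 2.47 and 1.99 under cKO, from 162 and 128 counts. At P8 its levels were 35.4 and 27.6 CPM under WT and 58.9 and 50.8 under cKO. No 2 groups overlapped, P1 was highest, P6 lowest, and cKO stood above WT at each time point. The highest group mean was 387 times the lowest.

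*Serpina3n* (ENSMUSG00000021091, chr12:104406729-104414329, plus strand), a secreted inhibitor of serine proteases in a cluster of similar genes, was likewise lowest at P6, over a smaller range. Its levels were 94.7 and 99.1 CPM at P1 WT against 130.0 and 138 at P1 cKO, and 15.5 and 16.3 at P6 WT against 29.0 and 27.5 at P6 cKO. At P8 they were 69.2 and 68.6 CPM under WT and 103 and 104 under cKO. Again cKO stood above WT at each time point without overlap, and the highest mean was 8.41 times the lowest. How the authors' counting divided reads among its near relatives is not given, which leaves the value uncertain to that extent.

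*Ptx3* (ENSMUSG00000027832, chr3:66219910-66225805, plus strand) encodes a long pentraxin, a pattern recognition protein, and overlaps *Veph1* on the other strand. It stood at 175 and 189.6 CPM at P1 WT and 183 and 193 at P1 cKO, groups that overlapped. At P6 it stood at 54.9 and 55.0 CPM under WT and at 33.2 and 30.2 under cKO, without overlap. At P8 it had returned to 215 and 213 CPM under WT and 208 and 217 under cKO, which overlapped.

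*Cp* (ENSMUSG00000003617, chr3:19957054-20009145, plus strand), the copper ferroxidase ceruloplasmin, overlaps *Hps3* on the other strand. Its levels were 922 and 918 CPM at P1 WT and 1040.1 and 941 at P1 cKO. They were 179 and 169 CPM at P6 WT against 476 and 505 at P6 cKO, and 257 and 258 at P8 WT against 571 and 573 at P8 cKO. The groups did not overlap at any time point, but the gap was narrow at P1 and wide at P6 and P8. Strand use in the counting is not given, so reads of *Cp* and *Ptx3* cannot be separated from those of their opposite-strand neighbours. *S1pr3*, *Cd44* and *Aspg* overlap non-coding genes on the other strand, and the same limit applies to them.

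Of the receptors, *Osmr* (ENSMUSG00000022146, chr15:6813577-6874969, minus strand) encodes the oncostatin M receptor subunit that pairs with gp130. It stood at 205 and 204 CPM at P1 WT and 210.2 and 209.7 at P1 cKO. At P6 it stood at 143 and 141 CPM under WT and at 53.0 and 61.7 under cKO, and at P8 at 257 and 266 under WT and 221 and 226 under cKO. The P6 libraries labelled cKO were thus the lowest by a wide margin, while those of P1 differed little.

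*S1pr3* (ENSMUSG00000067586, chr13:51408639-51422797, plus strand) encodes a G protein-coupled receptor for sphingosine-1-phosphate. Its P1 levels overlapped, at 264 and 278 CPM under WT and 272 and 268 under cKO. They were 148 and 141 CPM at P6 WT against 95.6 and 99.0 at P6 cKO, and 162 and 158 at P8 WT against 76.9 and 80.1 at P8 cKO. The labels thus stood apart at P6 and P8.

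*Cd44* (ENSMUSG00000005087, chr2:102811141-102901665, minus strand), the surface receptor for hyaluronan, varied least, with a highest group mean 1.89 times the lowest. Its levels were 287 and 279 CPM at P1 WT, 324 and 399 at P1 cKO, 361 and 373 at P6 WT and 427 and 452 at P6 cKO. At P8 it stood at 232 and 233 CPM under WT and 420.0 and 425 under cKO. Libraries labelled cKO were above those labelled WT at each time point, and the P8 WT libraries were the lowest.

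Of the intracellular proteins, *Hspb1* (ENSMUSG00000004951, chr5:135887919-135889563, plus strand) encodes a small heat shock protein, a chaperone that binds unfolded proteins. It stood at 13.6 and 14.1 CPM at P1 WT and 30.0 and 31.0 at P1 cKO. Its levels were 40.3 and 41.0 CPM at P6 WT against 78.5 and 62.6 at P6 cKO, and 22.5 and 19.6 at P8 WT against 40.1 and 39.3 at P8 cKO. Unlike *Lcn2* it was highest at P6, and cKO stood above WT at each time point.

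*Steap4* (ENSMUSG00000012428, chr5:7960457-7982213, plus strand) encodes a metalloreductase of iron and copper. It stood at 86.1 and 93.1 CPM at P1 WT and at 86.3 and 90.8 at P1 cKO, and at 92.7 and 93.5 at P8 WT against 40.2 and 38.0 at P8 cKO. At P6 it was at 2.41 and 2.15 CPM under WT and at 0.533 and 1.93 under cKO, where the 2 libraries had 35 and 124 counts. The P1 groups overlapped, P6 was lowest, and its highest group mean was 75.6 times the lowest.

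*Aspg* (ENSMUSG00000037686, chr12:112106679-112127559, plus strand), an asparaginase, was the weakest of the 10. Its levels were 1.32 and 1.46 CPM at P1 WT, 1.63 and 2.44 at P1 cKO, 1.85 and 2.18 at P6 WT and 1.22 and 1.65 at P6 cKO. At P8 it stood at 7.57 and 5.87 CPM under WT, from 450 and 424 counts, and at 1.06 and 0.796 under cKO, from 78 and 67 counts. The P8 WT libraries stood apart from the other 10. Per kilobase of exon, the mean CPM over the 12 libraries was 59.3 for *Cp*, 54.9 for *Ptx3*, 51.8 for *Cd44*, 38.2 for *Lcn2*, 38.1 for *S1pr3*, 36.1 for *Serpina3n*, 35.0 for *Hspb1*, 16.6 for *Steap4*, 15.1 for *Osmr* and 0.688 for *Aspg*.

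**Figure D2:**
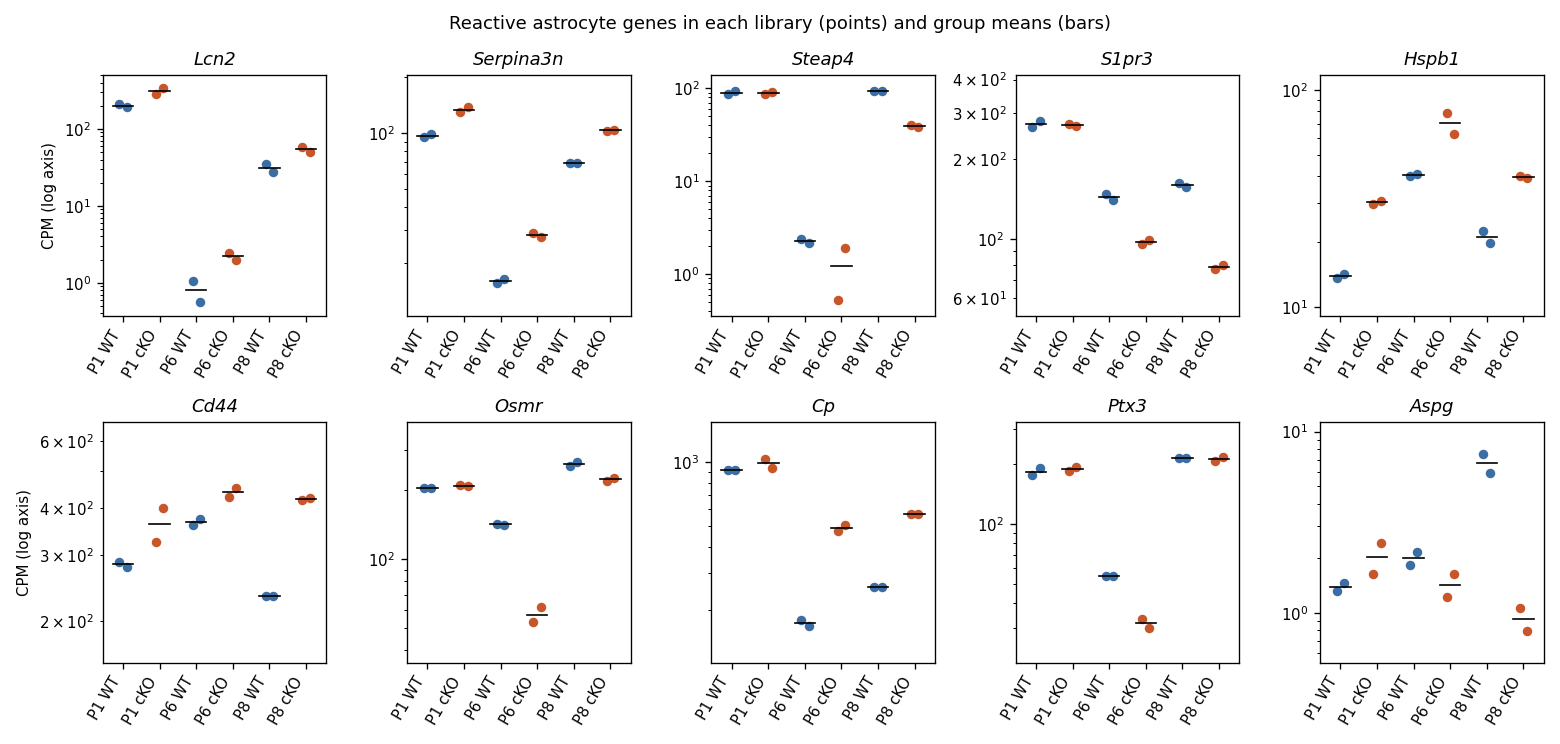
CPM (log axis, with its own range in each panel) of the 10 genes in the 6 groups, with a point per library and a bar at each group mean. *Lcn2* and *Steap4* dropped to group means of 0.806 to 2.28 CPM at P6, whereas *Hspb1* reached its highest mean there, 70.5 CPM under cKO.

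The steps between time points compare separate cultures from animals of different ages, so age and culture batch cannot be told apart in them. From P1 to P6 most of the 10 fell under both labels, *Lcn2* and *Steap4* by the most, and *Hspb1* rose. From P6 to P8 *Lcn2*, *Serpina3n*, *Steap4*, *Ptx3* and *Osmr* rose under both labels and *Hspb1* fell. A gene was called where edgeR's adjusted p was below 0.05 and the change was 1.5-fold or more.

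From P1 to P6 under WT, 6 genes were called lower and 1 higher, against 10.9% and 12.2% of all genes tested, and the median of the 10 was -1.32 (log2) against 0 for all genes. Under cKO 7 were called lower and 1 higher, against 10.4% and 11.0%, with a median of -1.67. *Lcn2* fell by 7.96 (SE 0.278, 249-fold, adjusted p = 3.73e-08) under WT and by 7.13 (SE 0.259, 140-fold, adjusted p = 9.01e-08) under cKO on the log2 scale. *Steap4* fell by 5.30 (SE 0.39, adjusted p = 5.36e-06) and by 6.17 (SE 0.414, adjusted p = 3.97e-06). These 2 genes went from levels near 100 CPM or above to a few CPM or less, and the size of the *Steap4* fall under cKO depended on the P6 library used, at -5.52 without replicate 1 and -7.37 without replicate 2. *Serpina3n* fell by 2.61 and 2.24, *Ptx3* by 1.73 and 2.57, *Cp* by 2.40 and 1.01, and *S1pr3* by 0.91 and 1.47 under WT and cKO. *Osmr* fell by 1.87 under cKO, while its change under WT, -0.52 (adjusted p = 0.000155), was below the fold cut-off. *Hspb1* rose by 1.55 and 1.21, and *Cd44* (0.38 and 0.28) and *Aspg* (0.53 and -0.51) were not called under either label.

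From P6 to P8 under WT, 6 genes were called higher and 2 lower, against 8.66% and 10.3% of all genes, with a median of 1.31 against 0.003 for all. Under cKO 5 were called higher and 1 lower, against 11.9% and 12.2%, with a median of 1.05. *Lcn2* rose by 5.30 (SE 0.258, 39.3-fold, adjusted p = 5.33e-07) under WT and by 4.62 (SE 0.236, 24.6-fold, adjusted p = 4.93e-07) under cKO. *Steap4* rose by 5.35 (40.8-fold, adjusted p = 7.34e-06) and 4.99 (31.8-fold, adjusted p = 8.66e-06), the latter being 4.34 without P6 cKO replicate 1 and 6.19 without replicate 2. Under WT the P8 libraries overlapped those of P1 for *Steap4*, whereas for *Lcn2* they stayed below. *Serpina3n* rose by 2.11 and 1.87, *Ptx3* by 1.96 and 2.74, and *Osmr* by 0.88 and 1.96. *Hspb1* fell by 0.95 and 0.83. *Aspg* rose by 1.74 (adjusted p = 0.00121) and *Cd44* fell by 0.66 (adjusted p = 0.000218) under WT, and neither was called under cKO, at -0.63 and -0.06. *Cp* (0.56 and 0.22) and *S1pr3* (0.15 and -0.31) did not reach the fold cut-off.

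**Figure D3:**
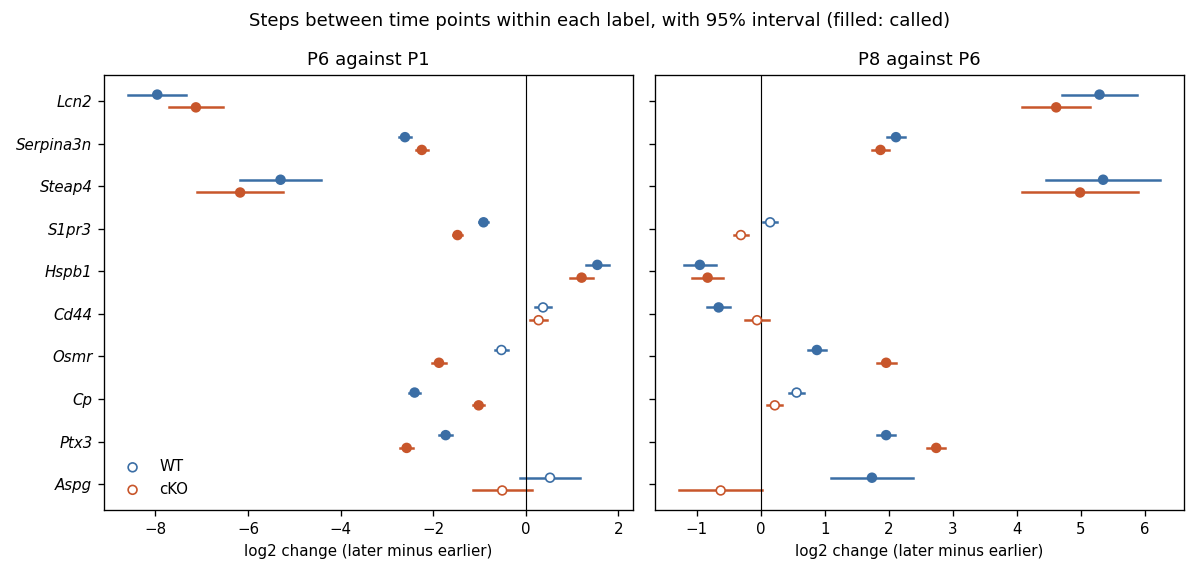
Fitted log2 change (x axis, later minus earlier time point) of each gene with its 95% interval, for P6 against P1 and P8 against P6, in libraries labelled WT and cKO, with filled points for called genes. *Lcn2* lies at -7.96 and -7.13 in the first step and at 5.30 and 4.62 in the second, and *Hspb1* lies on the other side of 0 in each.

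Companion lists moved as follows in the same steps. Of all genes tested, 10.9% were called lower and 12.2% higher from P1 to P6 under WT, and 10.4% and 11.0% under cKO. From P6 to P8, 8.66% were called higher and 10.3% lower under WT, and 11.9% and 12.2% under cKO. Counts near these shares are not read as results about a list. Of 12 A1-associated genes, 9 were called lower and 1 (*Fbln5*) higher from P1 to P6 under each label, and 6 under WT and 8 under cKO were called higher from P6 to P8, with *Fkbp5* called lower under WT. Among them, and chosen after its values were seen, *C3*, the central complement component, had levels of 1434 CPM at P1 WT, 114 at P6 WT and 375 at P8 WT. Of 11 A2-associated genes, 6 were called higher and 2 lower from P1 to P6 under each label, and from P6 to P8 1 was higher and 3 lower under WT and 3 higher and 5 lower under cKO. Among 21 genes of the inducing signals, 3 were called higher and 7 lower under WT and 1 higher and 10 lower under cKO from P1 to P6. From P6 to P8 5 of these were higher and 7 lower under WT, and 8 higher and 3 lower under cKO. Astrocyte markers gave 4 of 11 lower and 3 higher under WT and 3 lower and 1 higher under cKO in the first step. In the second step they gave 3 of 11 lower and 1 higher under WT, and 9 of 11 lower under cKO. Microglia and macrophage markers gave 4 of 10 lower and 1 higher under WT and 2 lower and 1 higher under cKO in the first step, then 3 and 6 higher. Fibroblast markers gave 7 of 8 higher under WT and 4 lower and 1 higher under cKO in the first step, then 5 higher under WT and 6 higher and 1 lower under cKO. The part of these cell types in the steps was not tested.

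At P1 *Hspb1* alone of the 10 was called, and it was higher under cKO. *Lcn2*, *Serpina3n*, *Cd44*, *Cp*, *Osmr* and *Aspg* also had higher values in both libraries labelled cKO than in both labelled WT, without reaching both criteria, and *Ptx3*, *S1pr3* and *Steap4* overlapped. The share of all genes that separated in this way was not counted, so no leaning of the 10 is drawn from it. The called share was 1 of 10 higher and 0 lower, against 4.01% and 0.892% of all genes tested, and the median of the 10 was 0.23 against 0 for all genes. With DESeq2 on all libraries 2 were called, and at an unadjusted p below 0.05 with the same fold also 2. *Hspb1* was 2.19-fold higher (log2 1.13, SE 0.11, adjusted p = 0.000222). *Lcn2* was at log2 0.64 (SE 0.193, 95% interval 0.20 to 1.08, adjusted p = 0.0768). *Serpina3n* (0.47, adjusted p = 0.000922) and *Cd44* (0.35, adjusted p = 0.0237) passed the adjusted p but not the fold. The other 6 lay between -0.02 (*Steap4*, adjusted p = 0.992, 95% interval -0.73 to 0.69) and 0.54 (*Aspg*, adjusted p = 0.315). Fibroblast markers moved as well at P1, with 7 of 8 called higher under cKO, as were 1 of 11 astrocyte markers, 1 of 10 microglia and macrophage markers (with 2 lower), 2 of 4 endothelial markers and 1 gene each of the mural, ependymal and choroid plexus, oligodendrocyte lineage and neuron lists. The part of these cells in the *Hspb1* difference was not tested.

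At P6 the genes split in direction. *Cp*, *Lcn2*, *Serpina3n* and *Hspb1* were called higher under cKO, and *Osmr* and *Ptx3* were called lower. The counts of 4 higher and 2 lower compare with 7.16% and 6.38% of all genes tested, and the median of the 10 was -0.11 against 0. *Cp* was 2.81-fold higher (log2 1.49, SE 0.052, adjusted p = 9.88e-08) and *Lcn2* 2.78-fold higher (1.48, SE 0.27, adjusted p = 0.00333). Both folds were of like size, but that of *Lcn2* stood on counts of 38 to 162 per library and its error was larger. *Serpina3n* was 1.78-fold (0.83, adjusted p = 8.85e-06) and *Hspb1* 1.73-fold higher (0.79, adjusted p = 0.000576). *Osmr* was 2.48-fold lower (-1.31, SE 0.0644, adjusted p = 8.68e-07) and *Ptx3* 1.73-fold lower (-0.79, SE 0.0608, adjusted p = 1.59e-05). *S1pr3* lay just outside the fold cut-off, at -0.57 (1.48-fold lower, adjusted p = 2.31e-05). *Steap4* (-0.89, SE 0.396, adjusted p = 0.14), *Aspg* (-0.49, adjusted p = 0.257) and *Cd44* (0.26, adjusted p = 0.0408) were not called. Without P6 cKO replicate 2, *Steap4* was at -2.09 (adjusted p = 2.14e-05) and *S1pr3* at -0.60, both called, without replicate 1 *Steap4* was at -0.24, and with the P6 libraries fitted alone *Lcn2* had an adjusted p of 0.0638. At P6, 6 of 8 fibroblast markers were called lower and 1 higher under cKO and 1 of 11 astrocyte markers and 2 of 10 microglia and macrophage markers lower. Of the other lists, 3 of 4 endothelial markers were lower (median -3.47), 3 of 5 mural markers lower and 1 higher, 3 of 4 neuron markers higher (median 1.06), 2 of 3 ependymal and choroid plexus markers higher and 1 lower, and 2 of 8 oligodendrocyte lineage markers lower. Their part in the P6 differences was not tested.

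At P8, 8 of the 10 genes were called. *Cp*, *Hspb1*, *Cd44*, *Lcn2* and *Serpina3n* were higher under cKO, and *Aspg*, *Steap4* and *S1pr3* were lower. The counts of 5 higher and 3 lower compare with 11.2% and 8.37% of all genes tested, and the median of the 10 was 0.29 against 0.012 for all. *Cp* was 2.22-fold higher (log2 1.15, SE 0.0515, adjusted p = 2.76e-07), *Hspb1* 1.89-fold (0.92, SE 0.108, adjusted p = 0.000159) and *Cd44* 1.81-fold (0.86, SE 0.0802, adjusted p = 3.33e-05). *Lcn2* was 1.74-fold higher (0.80, SE 0.196, adjusted p = 0.0114). *Serpina3n*, at log2 0.59 (adjusted p = 4.26e-05), lay at the fold cut-off itself and was below it with DESeq2's size factors (0.57) and without P8 WT replicate 2 or P8 cKO replicate 2 (0.58). Its call was kept in 2 of 5 other settings of scaling, filter or model. *Aspg* was 7.22-fold lower (-2.85, SE 0.295, adjusted p = 6.61e-05), *Steap4* 2.38-fold lower (-1.25, SE 0.32, adjusted p = 0.0142) and *S1pr3* 2.04-fold lower (-1.03, SE 0.0466, adjusted p = 3.01e-07). *Osmr* (-0.23, adjusted p = 0.0201) was below the fold cut-off and *Ptx3* (-0.01, adjusted p = 0.906, 95% interval -0.15 to 0.12) was not called. *Steap4* lost its call when any 1 of the 4 P8 libraries was left out, while its change stayed at -1.29 to -1.21 whichever library was left out. The fit estimated the spread of each gene over all 6 groups together. For *Steap4* that includes the P6 cKO libraries, at 0.533 and 1.93 CPM. Its P8 libraries stood at 92.7 and 93.5 CPM under WT and 40.2 and 38.0 under cKO. *Lcn2* lost its call without P8 WT replicate 2 or P8 cKO replicate 1, with changes of 0.63 to 0.99 over all libraries left out.

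Other cell type markers moved with these P8 differences, where 11.2% of all genes tested were called higher and 8.37% lower. Under cKO 6 of 11 astrocyte markers were called lower, 6 of 10 microglia and macrophage markers higher and 1 lower, and 7 of 8 fibroblast markers lower and 1 higher. Endothelial markers gave 1 of 4 higher and 2 lower, neuron markers 2 of 4 higher, mural markers 1 of 5 higher, ependymal and choroid plexus markers 2 of 3 higher, and oligodendrocyte lineage markers 1 of 8 higher and 3 lower. *Cd44*, *Lcn2* and *Cp* are examples of genes that cells other than astrocytes also express. Which cells gave the reads of any of the 10 genes was not measured, and the part of other cells was not tested.

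**Figure D4:**
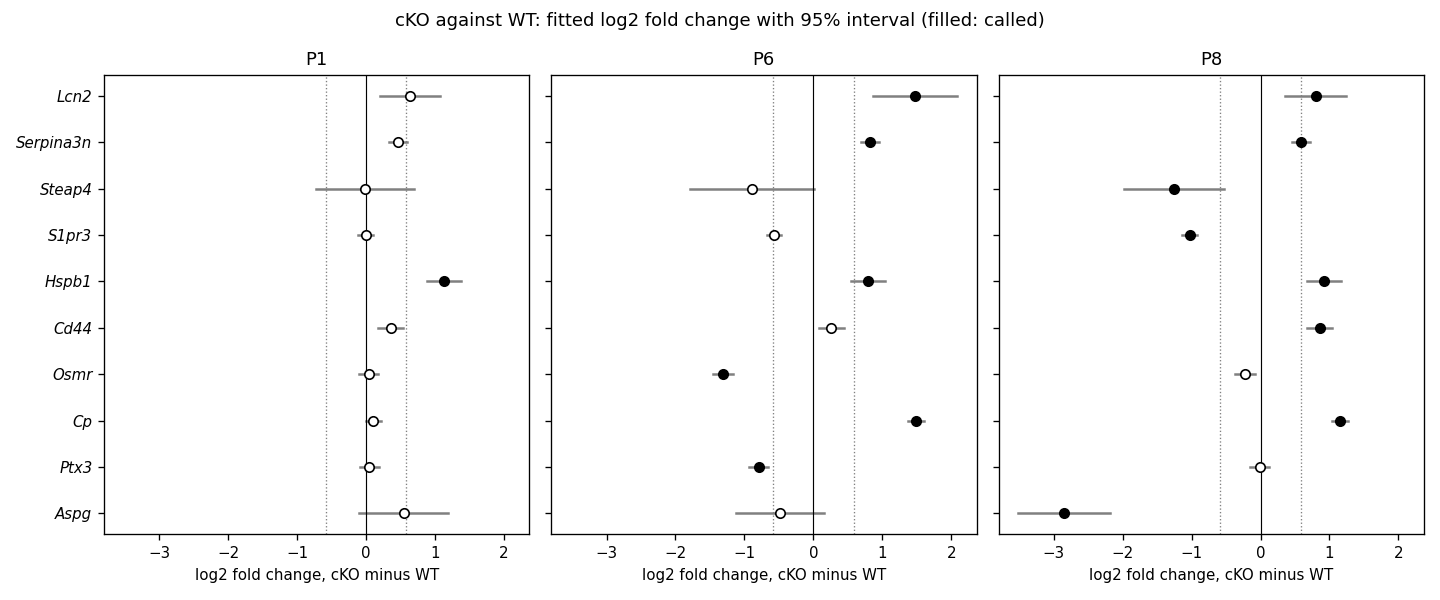
Fitted log2 fold change (x axis, cKO minus WT) of the 10 genes with 95% intervals at P1, P6 and P8, with filled points for called genes and dotted lines at a 1.5-fold change. *Hspb1* is filled at each time point (1.13, 0.79 and 0.92), *Cp* at P6 and P8 (1.49 and 1.15), and *Aspg* is farthest to the left, at -2.85 at P8.

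Differences of genotype effects between time points were tested as interaction terms, called by adjusted p alone. Between P1 and P6, 5 of the 10 differed, with 2 terms higher and 3 lower, against 7.12% and 8.19% of all genes. Between P6 and P8, 6 differed, with 3 each way, against 12.6% and 8.83%. Between P1 and P8, 4 differed, with 2 each way, against 14.0% and 11.7%. *Cp* and *S1pr3* were called in each of the 3. For *Cp* the effect of the label was 1.39 larger at P6 than at P1 (SE 0.0723, adjusted p = 1.88e-06). That of *Osmr* was lower by 1.35 at P6 than at P1 (-1.35, SE 0.0898, adjusted p = 1.01e-05) and higher by 1.08 at P8 than at P6 (SE 0.0896, adjusted p = 3.52e-05), and that of *Ptx3* moved likewise (-0.84 and 0.78). Both effects were thus more negative at P6 than at P1 or P8. That of *Aspg* was lower at P8 than at P6 (-2.36, SE 0.401, adjusted p = 0.0028). For *Hspb1*, *Lcn2* and *Steap4* no term was called. Between P1 and P8 the interval ran from -0.56 to 0.13 for *Hspb1* and from -0.46 to 0.78 for *Lcn2*. That of *Steap4* ran from -2.24 to -0.22 (-1.23, adjusted p = 0.0758 by the quasi-likelihood test), so a change of its effect was left unresolved.

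The remaining pan-reactive genes, *Gfap*, *Vim*, *Timp1* and *Cxcl10*, did not share 1 direction under cKO. *Timp1*, an inhibitor of metalloproteinases, was higher at P1 (1.41, adjusted p = 1.33e-05) and lower at P6 (-0.81, adjusted p = 0.000133). The intermediate filament gene *Vim* was higher at P6 (0.66) and P8 (0.95, adjusted p = 4.46e-07), and *Gfap*, the filament gene that defines astrocytes, was lower at P8 (378 CPM under WT against 184 and 176 in the libraries labelled cKO, -1.07, adjusted p = 9.68e-07). *Cxcl10*, an interferon-induced chemokine, was higher at P8 (1.54, adjusted p = 3.44e-05). In all, 1, 1 and 2 of the 4 were called higher and 0, 1 and 1 lower at P1, P6 and P8, with medians of 0.43, 0.22 and 0.26. Of all genes tested, 4.01%, 7.16% and 11.2% were called higher and 0.892%, 6.38% and 8.37% lower at P1, P6 and P8. The counts of the lists below compare with the same shares, and counts near them are not read as results about a list.

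Of 12 A1-associated genes, 1 was called higher at P1 (*Fbln5*, 0.88, adjusted p = 0.0315), 1 higher and 4 lower at P6, and 3 higher and 2 lower at P8, with medians of -0.13, -0.29 and 0.45. *Fbln5*, which encodes an elastic fibre protein, kept its call in 5 of 12 fits with a library left out, with values from 0.51 to 1.38, the lowest without P1 WT replicate 1 and the highest without P1 WT replicate 2, and had an adjusted p of 0.167 with the P1 libraries fitted alone. *Serping1*, the complement C1 inhibitor, was lower at P6 (-0.88, adjusted p = 1.12e-05) and P8 (-1.52, adjusted p = 1.78e-07). *Gbp2*, an interferon-induced GTPase, was lower at P6 (-1.44, adjusted p = 0.000334) and P8 (-0.64, adjusted p = 0.0196), while *H2-D1*, a class I histocompatibility gene, was higher at P8 (0.77, adjusted p = 1.17e-05). The P8 call of *Gbp2* was lost without P8 WT replicate 1 (-0.52, adjusted p = 0.115) or either P8 library labelled cKO (adjusted p = 0.0914 and 0.0766). The proteoglycan *Srgn* was higher at P6 (0.87, adjusted p = 0.000211) and P8 (0.66, adjusted p = 0.000687) and the co-chaperone *Fkbp5* at P8 (0.94, adjusted p = 0.000153).

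Of the A2-associated genes, 11 were analysed here. At P1 2 were called higher, at P6 2 higher and 2 lower, and at P8 3 higher and 2 lower, with medians of 0.21, 0.42 and 0.11. *Ptgs2*, the inducible cyclooxygenase, changed direction with time: its mean levels were 22.8 CPM under WT and 107 under cKO at P1 (2.23, adjusted p = 1.15e-06), 372 and 31.3 at P6 (-3.57, adjusted p = 3.19e-08), and 60.6 and 126 at P8 (1.06, adjusted p = 2.02e-05). *Tm4sf1* was higher at P1 (0.68) and P6 (0.88), and *Clcf1*, a cytokine of the interleukin-6 family, was higher at P6 (1.11, adjusted p = 0.0121, and 0.0651 without P6 cKO replicate 2) and P8 (0.77, adjusted p = 0.0499). *Tgm1*, a transglutaminase, was lower at P6 (-1.50, adjusted p = 0.00474, and 0.0533 with the P6 libraries alone) and P8 (-2.16), *Cd109* was lower at P8 (-0.96), and *Cd14*, a co-receptor for lipopolysaccharide that is abundant in macrophages, was higher at P8 (1.60, adjusted p = 9.69e-07).

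Among 21 genes of the inducing signals, 2 were called higher at P1, 5 higher and 2 lower at P6, and 10 higher and 3 lower at P8, with medians of 0.15, 0.00 and 0.35. *Il6* was higher at P1 (1.23, adjusted p = 0.0022), P6 (2.28, adjusted p = 2.4e-05) and P8 (2.12, adjusted p = 1.69e-05). *Lif* was likewise higher at P1 (1.31, adjusted p = 0.000528), P6 (1.73, adjusted p = 2.96e-05) and P8 (1.08, adjusted p = 0.000388). At P8 *Tnf* averaged 6.56 CPM under WT and 32.3 under cKO (2.30, adjusted p = 3.04e-07) and *Il1a* 0.42 and 1.89 (2.18, adjusted p = 0.000414), the latter also being higher at P6 (0.94, adjusted p = 0.0215). The genes called lower all encode receptor subunits, while the receptor genes *Il6ra* (0.32, adjusted p = 0.00781) and *Tnfrsf1a* (0.06, adjusted p = 0.412), named after their values were seen, were not called at P8. *Il6st*, which encodes gp130, the partner of *Osmr*, was lower at P6 (499.8 CPM under WT and 262 under cKO, -0.93, adjusted p = 1.43e-06) and P8 (-0.77, adjusted p = 2.93e-06), *Il1r1* was lower at P6 (-1.07, adjusted p = 0.000349) and P8 (-0.73, adjusted p = 0.0021), and *Lifr* at P8 (-0.99, adjusted p = 0.0128). The *Lifr* call was lost without P8 WT replicate 2 or either P8 library labelled cKO (adjusted p = 0.0575 to 0.0705). *Osm*, the ligand of *Osmr*, named after its values were seen, was higher at P8 (1.64, adjusted p = 4.03e-05). The P8 rises of *Tnf*, *Il1a*, *Osm* and *Cd14* stood beside the higher macrophage markers given above, whose part in them was not tested.

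Among 21 measured partners and relatives of the 10 genes, 3 were called higher at P1, 1 higher and 6 lower at P6, and 7 higher and 3 lower at P8, with medians of 0.17, -0.11 and 0.30. *Spp1*, which encodes osteopontin, a ligand of *Cd44*, was higher at P6 (0.78, adjusted p = 3.91e-07) and P8 (1.67, adjusted p = 3.76e-09). *Has2*, a hyaluronan synthase, was higher at P1 (1.26, adjusted p = 0.000108) and lower at P6 (-2.69, adjusted p = 3.91e-07). *Steap3*, a relative of *Steap4*, was lower at P6 (-2.23, adjusted p = 0.00125) and P8 (-1.69, adjusted p = 0.00367). The neuronal pentraxin *Nptx2* was higher at P1 (1.59, adjusted p = 0.0254) and P8 (2.43, adjusted p = 0.000775) at group means under 2 CPM, and its P1 call was lost without P1 WT replicate 1 or P1 cKO replicate 2 (adjusted p = 0.138 and 0.122). *Serpina3g*, a neighbour of *Serpina3n* in the same cluster, was lower at P8 (-2.15, adjusted p = 0.00438), and at P6 it had 28 and 19 counts under WT and 0 under cKO.

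Likeness of pattern over the 12 libraries was described by Pearson's r of log2 CPM, with no test, since the libraries form 6 groups. Among the 10 genes r was highest for *Lcn2* with *Serpina3n* (0.968), *Steap4* with *Ptx3* (0.961) and *Osmr* with *Ptx3* (0.935), and lowest for *Steap4* with *Hspb1* (-0.811). Of 15145 genes compared, the most like each was *Saa3* for *Lcn2* (0.992), *Pygl* for *Serpina3n* (0.994), *Ms4a7* for *Ptx3* (0.981), *Kmt5a* for *Cp* (0.990) and *Ms4a4a* for *Osmr* (0.984). For the others it was *Dnah6* for *S1pr3* (0.981), *Bag2* for *Cd44* (0.957), *Rras2* for *Hspb1* (0.980), *Zfp658* for *Steap4* (0.985) and *Zfp266* for *Aspg* (0.971).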

How the data were processed

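RNA-seq counts of 12 libraries were used, as whole numbers of reads per gene and not normalized, which the authors deposited after mapping with Hisat2 to GRCm38. Which program counted them, with which annotation and strand setting and how it divided shared reads, was not given in the sources used here. Identifiers were matched to GENCODE vM21 (18861 of 18903) for positions and exon lengths. In R 4.3.3, edgeR 4.0.16 fitted 1 mean per group over all libraries after TMM scaling and filterByExpr, and quasi-likelihood tests were adjusted by Benjamini-Hochberg over 17938 genes. Calls required a 1.5-fold change or more with adjusted p below 0.05, interactions the p alone. The study's cut-off, without adjustment, was an alternative. Replicates differed by more than counting noise (chi-square per degree of freedom 30.5 to 47.1). Correlations used log2 of CPM plus 0.5. DESeq2 1.42.0, other scaling, filters and each library left out were also tried, and the fit was tested on simulated counts. The members, companion lists and markers were chosen with earlier results of these data known. Named genes were the 10, *Zmynd8*, per companion list and time point the 2 largest calls each way (mean 1 CPM or more), and the gene most like each of the 10. Promoter windows came from RefSeq (GRCm38.p6).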

Additional observations from a re-analysis of the deposited data

Results flagged for a closer look

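The genotype effects of 7 of the 10 genes differed in at least 1 of 3 interaction terms between time points, against 34.7% of all genes tested, which is why they are listed here, each as the log2 difference between the cKO minus WT effects at 2 time points. Between P1 and P6 the term was 1.39 for *Cp*, 0.36 for *Serpina3n*, -1.35 for *Osmr*, -0.84 for *Ptx3* and -0.56 for *S1pr3*. Between P6 and P8 it was -0.34 for *Cp*, 0.60 for *Cd44*, 1.08 for *Osmr*, 0.78 for *Ptx3*, -2.36 for *Aspg* and -0.46 for *S1pr3*. Between P1 and P8 it was 1.04 for *Cp*, 0.50 for *Cd44*, -3.40 for *Aspg* and -1.02 for *S1pr3*. The adjusted p-values from edgeR's quasi-likelihood test ran from 1.88e-06 (*Cp*, P6 against P1) to 0.0153 (*Serpina3n*, P6 against P1). The *Serpina3n* term passed 0.05 in 10 of 12 fits with a library left out, and its adjusted p was 0.0517 when only the compared groups were fitted. Time points were separate cultures, so these differences and differences between cultures cannot be told apart.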

How the results depend on the processing

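Of 1700 values recomputed for the 10 genes, 1651 kept their direction and side of the threshold, 15 lost and 24 gained a call, and 10 changed sign. Of 731 for the named companion genes, 711 kept both and 20 lost a call, those of *Fbln5*, *Gbp2*, *Lifr*, *Clcf1*, *Tgm1* and *Nptx2*. At P1 the number called higher was 1, and 2 with DESeq2 on all libraries, 2 with the compared groups alone, 2 at an unadjusted p, and 1 to 2 with a library left out (2 without P6 WT replicate 1 or 2, *Lcn2* being added). With a fold of at least 2 the counts were 2 higher and 1 lower at P6 and 1 higher at P8, and 0 lower from P6 to P8 under either label. Leaving out a library gave 2 to 4 called lower at P6 (4 without P6 cKO replicate 2) and 3 to 5 higher at P8 (3 without P8 WT replicate 2). With a library left out, values that were not called spanned 0 for *Steap4* at P1 (-0.075 to 0.0404, with 0.02 without P1 cKO replicate 1), *S1pr3* at P1 (-0.0448 to 0.0305, with 0.0027 without P1 cKO replicate 2), *Ptx3* at P1 (-0.0115 to 0.110) and at P8 (-0.0438 to 0.0198), and for differences of genotype effects of *Lcn2* (P8 against P1, -0.0109 to 0.349), *Hspb1* (P8 against P6, -0.0324 to 0.294), *Cd44* (P6 against P1, -0.242 to 0.0555) and *Steap4* (P8 against P6, -1.01 to 0.84, the latter without P6 cKO replicate 2, adjusted p = 0.00626). None of these was called with all libraries, and the cause of the changes was not tested. Same-numbered libraries did not deviate together (r from -0.0448 to 0.0743 over 15 group pairs), and with the replicate block the count of genes of the table called at P1 went from 719 to 666 higher and from 160 to 141 lower, with no call of the 10 genes changed. With 2 libraries a group, small differences could not be resolved. The standard errors of the cKO minus WT differences were widest for *Steap4* at P6 (0.396), P8 (0.32) and P1 (0.315).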
